A study of Mus musculus and Mus musculus musculus x Mus musculus castaneus with 52 samples.

Results

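The TET dioxygenases Tet1, Tet2 and Tet3 and the glycosylase Tdg were followed by RNA sequencing across mouse pluripotent stem cells with XX, XY or XO sex chromosomes. They were taken by gene symbol, and all 4 were present among the 16687 genes of the deposited table, in each of its 24 libraries. Of the 52 samples of the series, 32 were RNA samples, of which 8 are labelled as technical repeats without a column of their own in the table, and the 20 chromatin accessibility samples were not analysed here. The induced pluripotent stem cell (iPSC) lines LV20, LV21 and LV22 were female and LV4, LV8 and LV16 were XY, all Mus musculus, and each line gave 1 library at passage 7 (P7) and 1 at passage 13 (P13), by which the female lines are labelled XO. The embryonic stem cell (ESC) lines were the XX lines CM1 and CM2 and the XY lines CM3 and CM7, wild type, at passage 5 (P5), from a musculus by castaneus cross. A separate experiment grew ESCs in serum with LIF, the cytokine that keeps mouse ESCs undifferentiated, and read them at 0 h and 24 h after LIF was taken away. It held the wild-type XX line F121 (musculus by castaneus), the wild-type XY line V6.5 (Mus musculus) and 2 clones labelled as female Dusp9+/- lines (musculus by castaneus), where Dusp9 is an X-linked phosphatase that acts on the kinase ERK. Each line at each time or passage is 1 library, so replicates are lines or clones, and F121 and V6.5 are 1 line each.

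The TET enzymes use iron, oxygen and 2-oxoglutarate to oxidise 5-methylcytosine in DNA, first to 5-hydroxymethylcytosine and then to 5-formylcytosine and 5-carboxylcytosine. Tdg, thymine DNA glycosylase, cuts out both 5-formylcytosine and 5-carboxylcytosine, and base excision repair then puts an unmodified cytosine back. Mouse ESCs are known for high Tet1 and Tet2, while Tet3 is best known from the oocyte, the zygote and differentiating cells. Tet1 and Tet3 carry a CXXC zinc finger in their long forms, which Tet2 lacks.

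Tet1 lies on chromosome 10 (62804570 to 62887469), Tet2 on chromosome 3 (133463677 to 133545136), Tet3 on chromosome 6 (83362373 to 83457208) and Tdg on chromosome 10 (82629814 to 82650799), in RefSeq's annotation of GRCm38.p6. None of them is X-linked, so X chromosome number does not set their own gene copy number. The 250 bases before the start that RefSeq's promoter table gives are shown for Tet2 and Tet3, the members whose levels moved most between conditions, with each match to GGGCGG, on either strand, in capitals. The Tet2 window is chr3:133544391-133544640 and the Tet3 window chr6:83441679-83441928, both on the minus strand and both inside the gene's annotated span.
Tet2: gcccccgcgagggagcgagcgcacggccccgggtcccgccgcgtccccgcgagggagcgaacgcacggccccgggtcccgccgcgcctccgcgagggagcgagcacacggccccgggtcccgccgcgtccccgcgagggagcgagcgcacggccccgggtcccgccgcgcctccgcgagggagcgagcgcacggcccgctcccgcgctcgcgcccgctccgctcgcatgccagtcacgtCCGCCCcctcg
Tet3: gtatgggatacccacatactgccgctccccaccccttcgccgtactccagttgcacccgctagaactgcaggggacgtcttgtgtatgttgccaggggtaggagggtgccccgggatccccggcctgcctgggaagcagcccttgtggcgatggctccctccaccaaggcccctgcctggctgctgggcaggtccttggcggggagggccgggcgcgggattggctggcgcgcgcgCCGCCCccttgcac
The Tet2 window held 51 CG pairs, more than 99.9% of the 32851 promoter windows of the same length. The Tet3 window held 17, the Tet1 window 15 and the Tdg window 19, and the median window held 6. GGGCGG, the GC box, occurred 1 time each in the windows of Tet1, Tet2 and Tet3 and not in that of Tdg, and 32.7% of all windows hold it. CACGTG, the E-box, and TTCNNNGAA, the letters of a STAT element, each occurred 1 time in the Tdg window and in no other of the 4, against 6.02% and 7.02% of all windows. ATGCAAAT, the octamer, was in none of the 4 windows (1.6% of all windows). Both strands were searched, and these matches are a description of the letters, not of binding.

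Values are log2 CPM, reads scaled to library size on a log2 scale, on which a difference of 1 is a 2-fold difference. The libraries held 8309171 to 14245900 reads, with a deposited floor of -2.45 log2 CPM at 0 reads. All 4 genes passed the filter of a mean of at least 1 CPM in every fit. Tet1 had 10667 to 24864 reads per library, Tet2 1278 to 6333, Tet3 180 to 1072 and Tdg 45 to 126, so that counting error alone was 0.968%, 2.80%, 7.45% and 14.9% of the value in the respective poorest library. A change called for a gene has a Benjamini-Hochberg adjusted p under 0.05 over all genes tested, by limma.

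The label checks left doubts about 2 iPSC libraries and the clones. The median X-linked gene lay above the median autosomal gene by 0.33 and 0.44 (log2) in LV20 and LV22 at P7, but 0.29 below it in LV21 at P7, and the XY iPSC libraries were 0.58 to 0.75 below. At P13 the female lines were 0.66 (LV20), 0.76 (LV21) and 0.32 (LV22) below. Dusp9 itself was 6.93 log2 CPM in F121 at 0 h, 5.96 in clone 1 and 7.43 in clone 2. At 24 h it was 7.84 in F121, 7.71 in clone 1 and 6.58 in clone 2, so that at each time 1 of the 2 clones was near or above F121, and not the same one. The Dusp9 signal therefore goes against the label in at least 1 library at each time, and the clones are named below only as labelled. The X-linked Xist at 0 h was 4.24 in F121 and 7.45 and 7.86 in clones 1 and 2. The Y-linked Ddx3y, Eif2s3y and Uty were higher in every XY library than in every other. Kdm5d, also Y-linked, had a mean of 1.04 in the XY CM lines and 1.09 in the XX CM lines. The pluripotent markers Pou5f1, Sox2, Nanog, Zfp42 and Esrrb had reads in every library, with a summed 1345 to 2976 CPM. The fibroblast or feeder markers (12 genes) summed to 92.3 to 1557 CPM, with Lum at 0 reads in V6.5 at 24 h and no other of them at 0 anywhere. Primitive endoderm markers (5 of 6 in the table) summed to 16.9 to 114 CPM, trophoblast markers (5) to 7.20 to 175 CPM and formative markers (6) to 37.4 to 449 CPM.

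**Figure D1:**
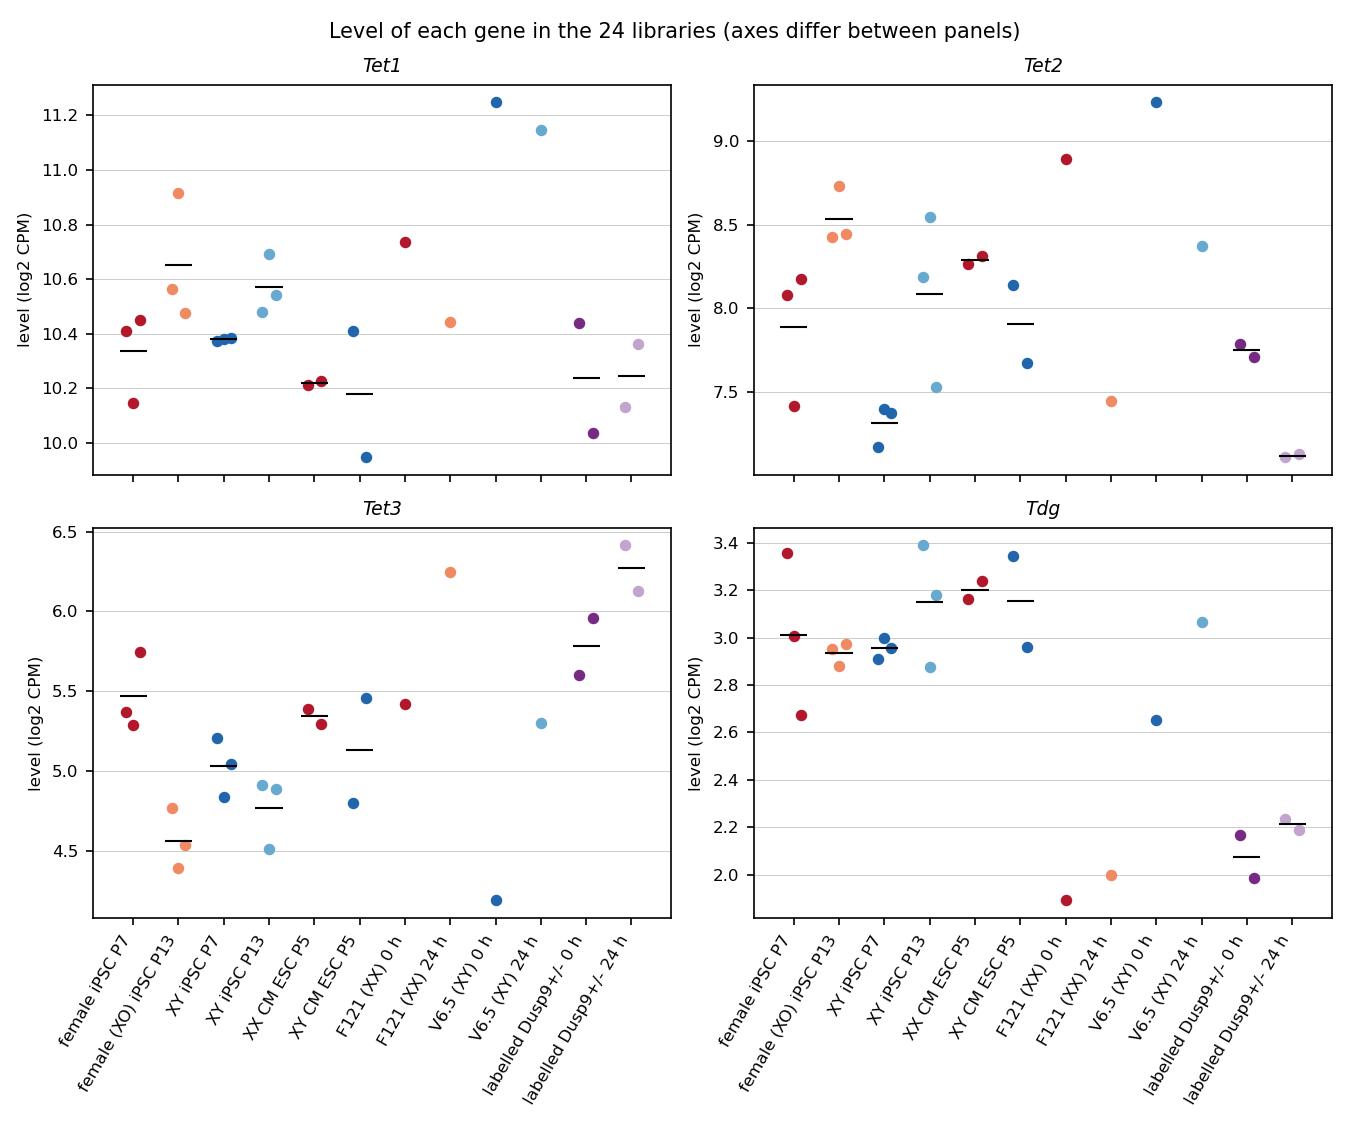
Level of Tet1, Tet2, Tet3 and Tdg (log2 CPM, separate axes) in the 24 libraries by group. Points are libraries (1 line or clone each) and bars are group means where a group holds more than 1. Tet2 and Tet3 stand in opposite order between 0 h and 24 h without LIF, and Tdg is lowest in F121 and the clones labelled Dusp9+/-.

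Tet1, the founding TET enzyme and the one with the most reads here, varied least of the 3 TET genes, from 9.95 log2 CPM in CM7 to 11.25 in V6.5 at 0 h. The order of its means over the groups of 2 or 3 lines was female P13 (10.65 ± 0.23, SD, n = 3), XY P13 (10.57 ± 0.11, n = 3), XY P7 (10.38 ± 0.00626, n = 3), female P7 (10.34 ± 0.17, n = 3), the clones labelled Dusp9+/- at 24 h (10.25 ± 0.16, n = 2) and at 0 h (10.24 ± 0.29, n = 2), XX CM (10.22 ± 0.01, n = 2) and XY CM (10.18 ± 0.33, n = 2). Of neighbours in that order, XY P13 and XY P7 alone had ranges that did not overlap. The share of all genes with ranges so apart was not counted, here or for the other members below. The 2 V6.5 libraries, at 11.25 and 11.15, were above all 22 others.

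Tet2 ran from 7.11 log2 CPM in clone 1 at 24 h to 9.23 in V6.5 at 0 h, a range of 2.12. Its order of group means was female P13 (8.53 ± 0.17, n = 3), XX CM (8.29 ± 0.03, n = 2), XY P13 (8.09 ± 0.51, n = 3), XY CM (7.91 ± 0.33, n = 2), female P7 (7.89 ± 0.41, n = 3), the clones at 0 h (7.75 ± 0.06, n = 2), XY P7 (7.32 ± 0.12, n = 3) and the clones at 24 h (7.12 ± 0.01, n = 2). Ranges of neighbours were apart at the top, between female P13 and XX CM, and at the bottom, where XY P7 lay apart from the clones at 0 h above it and at 24 h below it.

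Tet3 had the widest range of the 4, 2.23, and its extremes were those of Tet2 exchanged: it was lowest in V6.5 at 0 h (4.19) and highest in clone 1 at 24 h (6.41). Its order of group means was the clones at 24 h (6.27 ± 0.20, n = 2) and at 0 h (5.78 ± 0.26, n = 2), female P7 (5.47 ± 0.24, n = 3), XX CM (5.34 ± 0.07, n = 2), XY CM (5.13 ± 0.47, n = 2), XY P7 (5.03 ± 0.18, n = 3), XY P13 (4.77 ± 0.22, n = 3) and female P13 (4.56 ± 0.19, n = 3), and only the clones at 24 h and at 0 h had ranges apart from each other among neighbours. Tdg was 2.65 to 3.39 log2 CPM in the iPSC, CM and V6.5 libraries, where all neighbours in the order of group means overlapped, and lower, at 1.89 to 2.23 in F121 and the clones.

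The iPSC lines were compared between passages, where the female lines are labelled XO by P13 and the XY lines stay XY. X-linked output left LV21 at P7 and LV22 at P13 in doubt, as given above. Tet3 fell in the female lines and Tet2 rose in the XY lines. In bulk RNA a lower level in each cell and fewer cells with the gene cannot be told apart. At P7 Tet3 was 5.37 (LV20), 5.29 (LV21) and 5.75 (LV22), and 4.76, 4.39 and 4.53 in the same lines at P13. Each female line was lower at P13, and the groups did not overlap, though the share of all genes so separated was not counted. The log2 change was -0.90 ± 0.17 (SE, n = 3 lines at each passage), a 1.87-fold fall with an adjusted p of 0.00963. Of all genes tested, 9.00% were called in the female lines, 4.32% higher and 4.68% lower, and Tet3 was the 1 called of the 4 members.

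Tet3 in the XY lines was 5.20 in LV4, 4.84 in LV8 and 5.04 in LV16 at P7, and 4.91, 4.51 and 4.89 at P13. All 3 XY lines were also lower at P13, but by 0.16 to 0.32, and the groups overlapped (log2 change -0.26 ± 0.17, adjusted p 0.333). The difference between the 2 passage changes of Tet3 was -0.65 ± 0.24 and was not called (adjusted p 0.485). A larger fall in female lines is therefore not established. No gene of 13978 was called in that interaction by limma (0.00%), with 1242 genes at an unadjusted p under 0.05, and none by voom. With the cell line as a block 11 genes were called in it, and Tet3 was not among them (adjusted p 0.264).

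Tet2 in the XY lines was 7.17 in LV4, 7.40 in LV8 and 7.37 in LV16 at P7, and 8.19, 8.55 and 7.53 at P13. LV4 and LV8 were higher by 1.01 and 1.15, LV16 only by 0.16. All P13 libraries were above all P7 libraries, and how many of all genes were separated in that way was not counted. The change was 0.77 ± 0.22, a 1.71-fold rise with an adjusted p of 0.0341, where 13.0% of all genes were called, 7.23% higher and 5.82% lower, and it was the 1 called of the 4 members. That call was lost without a filter on low values (adjusted p 0.0693), with voom (0.0590) and without any 1 of LV4, LV8 and LV16 at P7 or LV4 and LV8 at P13 (0.0743 to 0.145).

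In the female lines at P7 Tet2 was 8.08 (LV20), 7.42 (LV21) and 8.17 (LV22), and 8.43, 8.73 and 8.44 at P13. Every female line was higher at P13, LV21 by 1.31 and the others by 0.35 and 0.27. The change of 0.65 ± 0.22 was not called (adjusted p 0.0795), nor was its difference from the change in XY lines (-0.13 ± 0.31, adjusted p 0.931).

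Tet1 was also higher at P13 than at P7 in each of the 6 lines, by 0.027 to 0.77. Its passage groups did not overlap in either sex, yet it was not called in female lines (0.32 ± 0.11, adjusted p 0.0807) or XY lines (0.19 ± 0.11, adjusted p 0.257). Tdg had changes of -0.08 ± 0.23 in the female and 0.19 ± 0.23 in the XY lines (adjusted p 0.870 and 0.614). With 64 to 126 reads in these 12 libraries, its 95% intervals reached from -0.57 to 0.42 and from -0.30 to 0.69, so changes of that size were not detectable.

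Fibroblast markers were higher at P13 in both sexes, 7 of 12 in the female lines and 9 of 12 in the XY lines. Of all genes 4.32% were called higher in the female lines and 7.23% in the XY lines. Their summed level was 288 to 419 CPM at P7 and 577 to 1191 CPM at P13 in the female lines, and 295 to 314 CPM at P7 and 559 to 1557 CPM at P13 in the XY lines, with none at 0 reads. Of 5 primitive endoderm markers, 1 was called higher at P13 in the female and 2 in the XY lines. The median log2 change of the 5 was -0.95 in the female and 1.36 in the XY lines. Their sums were 28.7 to 37.0 CPM at P7 and 41.7 to 83.6 CPM at P13 (female) and 26.1 to 38.5 and 46.4 to 114 CPM (XY). In the female lines the sums thus rose while the median marker fell. Sox7 was at 0 reads in LV4 at P7. Of 5 pluripotent markers, 1 was called lower in the female and 2 were called higher in the XY lines, with median changes of -0.07 and -0.05. The line with the highest Tet2 at P13, LV21, had the lowest fibroblast sum of the female P13 libraries, while LV16, with the lowest Tet2, had the lowest sum of the XY P13 libraries. The part of these cells in the Tet2 and Tet3 results was not tested.

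**Figure D2:**
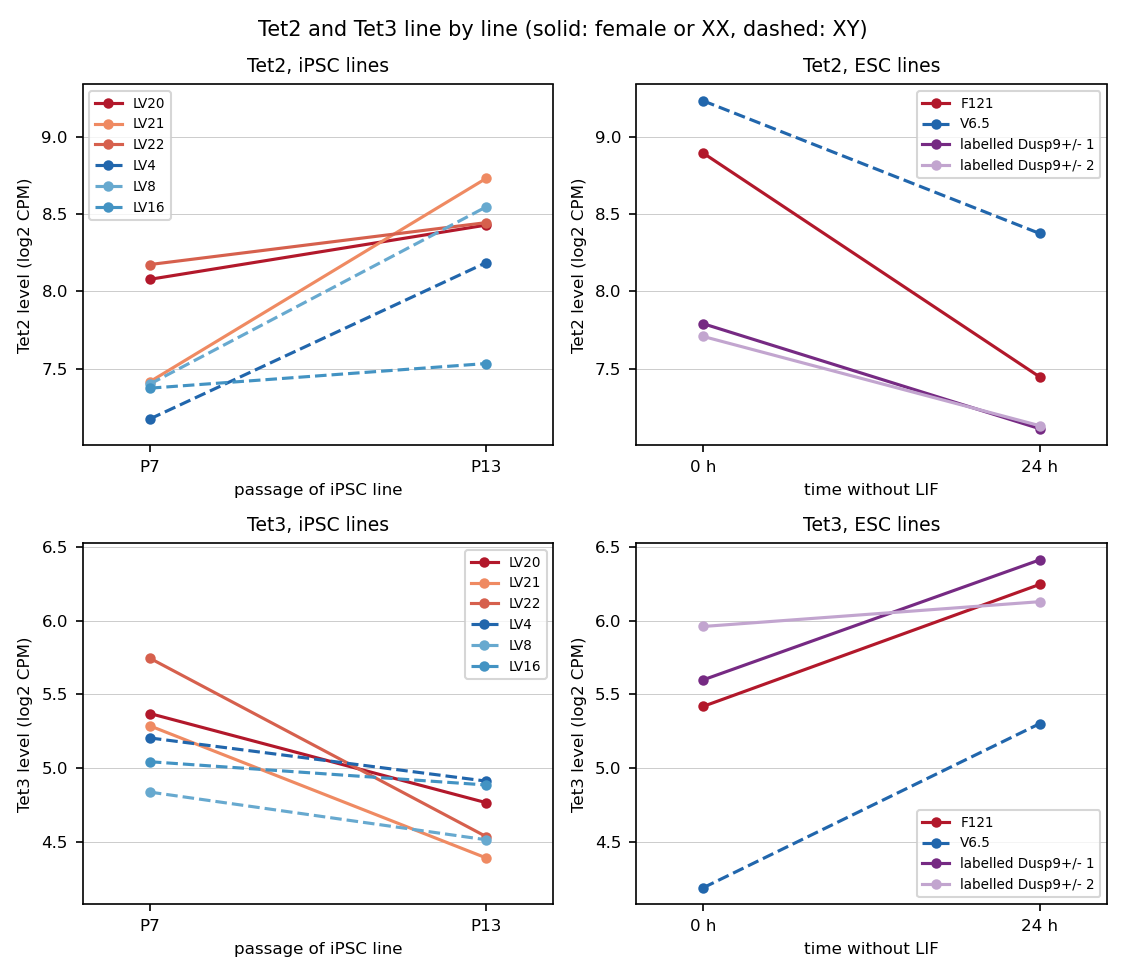
Tet2 (top) and Tet3 (bottom) in log2 CPM, line by line, for the iPSC lines at P7 and P13 (left) and the ESC lines at 0 h and 24 h without LIF (right). Each line joins the libraries of 1 cell line, solid for female or XX and dashed for XY. Tet2 is higher at P13 and lower at 24 h in every line drawn, and Tet3 the reverse.

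Female and XY iPSC lines were compared at each passage. At P7 the means of both Tet2 and Tet3 were higher in the 3 female lines than in the 3 XY lines, and neither difference was called. For each the lowest female library was above the highest XY library, and the share of all genes so separated was not counted. Of all genes tested, 4.78% were called at P7 (3.05% higher and 1.72% lower), and 0 of the 4 members, with 2 of them at an unadjusted p under 0.05 and 0 called by voom. Tet2 differed by 0.57 ± 0.22 (adjusted p 0.147) and Tet3 by 0.44 ± 0.17 (adjusted p 0.148). The female library nearest to the XY lines in Tet2 was LV21, at 7.42 against 7.40 in LV8. LV21 was also the only female P7 library with X-linked output below the autosomes, as it was in all XY libraries. Without LV21 the Tet2 difference was 0.81 ± 0.20 and was called (adjusted p 0.0167), but 1727 genes were then called, against 668 with LV21 included. LV21 had the lowest Tet2 of the female P7 libraries, so leaving it out can only raise the difference. Across all settings run the difference was 0.43 to 0.81, with limma adjusted p from 0.0167 to 0.450. The part of X-linked output in the Tet2 difference was not tested. Tet1 differed by -0.04 ± 0.11 (adjusted p 0.858) and Tdg by 0.06 ± 0.23 (adjusted p 0.916). These P7 libraries also enter the passage comparisons, so the P7 difference and the passage change of Tet3 are not independent.

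At P13, when the female lines are labelled XO, all 4 members overlapped between female and XY lines. Tet2 differed by 0.45 ± 0.22, Tet3 by -0.21 ± 0.17, Tet1 by 0.08 ± 0.11 and Tdg by -0.22 ± 0.23, each with an adjusted p of 0.999. The Tet2 difference was 0.17 without LV16 and 0.67 without LV8, not called in either. Across all genes 0.0286% were called at P13, all of them lower in the female lines. No member was called by limma or voom, and 0 had an unadjusted p under 0.05.

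Wild-type XX and XY ESC lines were compared over the 3 XX libraries (CM1, CM2 and F121 at 0 h) and 3 XY libraries (CM3, CM7 and V6.5 at 0 h), with the experiment as a covariate. No member was called by limma or voom, and 0 had an unadjusted p under 0.05, where 7.19% of all genes were called (4.87% higher and 2.32% lower). Tet3 came closest: it was 5.39 in CM1, 5.30 in CM2 and 5.42 in F121, against 4.80 in CM3, 5.46 in CM7 and 4.19 in V6.5. The XY library CM7 was above all XX libraries, so the groups overlapped. The difference was 0.55 ± 0.24 (adjusted p 0.216), with a 95% interval up to 1.11 whose lower end was at -0.00287. It was 0.21 in the CM lines alone, which is also its value without F121 or V6.5, and 0.84 without CM7, called in neither. Tet1 (-0.14 ± 0.14, adjusted p 0.584), Tet2 (0.14 ± 0.16, adjusted p 0.652) and Tdg (-0.22 ± 0.26, adjusted p 0.660) differed by about their standard errors.

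Within the CM lines, which share strain and experiment, Tet2 was 8.27 and 8.31 in the XX lines CM1 and CM2 and 8.14 and 7.67 in the XY lines CM3 and CM7. Both XX lines were above both XY lines, by 0.38 on average, without a call, and the share of all genes so ordered was not counted. In the other pair the order was the opposite, with Tet2 at 8.89 in F121 and 9.23 in V6.5.

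**Figure D3:**
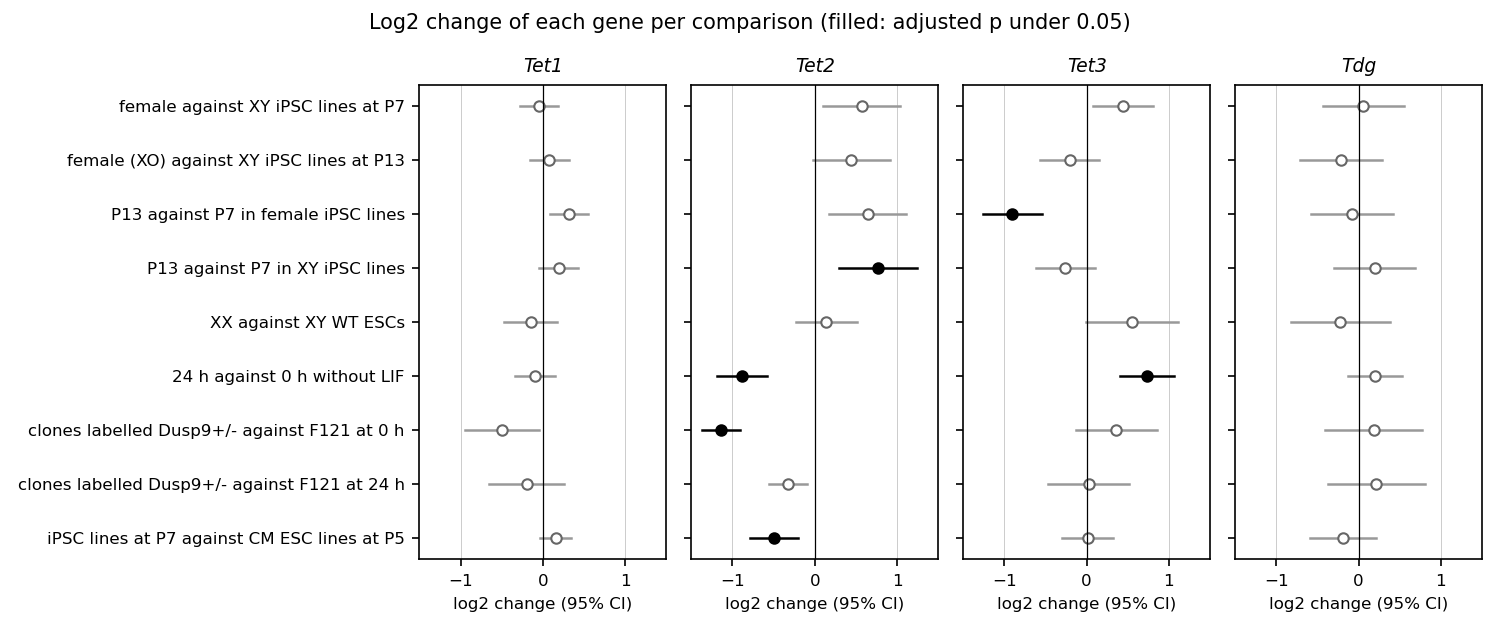
Log2 change of each member with its 95% confidence interval (limma) in 9 comparisons, positive where the first-named group is higher. Filled points have an adjusted p under 0.05 over all genes tested. Tet2 has 4 filled points and Tet3 has 2, while Tet1 and Tdg have none.

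After 24 h without LIF Tet2 fell and Tet3 rose, with all 4 lines in the same direction. Tet2 went from 8.89 to 7.45 in F121, from 9.23 to 8.37 in V6.5, from 7.79 to 7.11 in clone 1 and from 7.71 to 7.13 in clone 2. Every line was lower at 24 h, by 0.58 to 1.45, but since the lines start at different levels, the 0 h and 24 h libraries overlap across lines. The change with genotype as a covariate was -0.89 ± 0.13 (n = 4 lines), a 1.85-fold fall with an adjusted p of 0.00271. Many genes moved in that comparison (32.7% were called, 16.8% higher and 15.9% lower), and 2 of the 4 members did, 1 each way.

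Tet3 went from 5.42 to 6.25 in F121, from 4.19 to 5.30 in V6.5, from 5.60 to 6.41 in clone 1 and from 5.96 to 6.13 in clone 2. Every line was higher at 24 h, V6.5 by the most (1.11) and clone 2 by the least (0.17). The change was 0.73 ± 0.14, a 1.66-fold rise with an adjusted p of 0.00754. Deviations of the same-numbered clones from their group means at 0 h and at 24 h were negatively correlated over genes (-0.36), so the change of each single clone is uncertain while the mean over both is not affected by it. Both calls held under every alternative setting run, with adjusted p up to 0.0107 for Tet2 and up to 0.0318 for Tet3.

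The same shift can be read within a library as Tet2 reads per Tet3 read, a ratio that library size does not touch and that is compared here only between libraries. It went from 11.1 to 2.30 in F121, from 33.3 to 8.44 in V6.5, from 4.58 to 1.62 in clone 1 and from 3.36 to 2.00 in clone 2. V6.5 at 0 h had the highest ratio and clone 1 at 24 h the lowest of all 24 libraries. Tet1 had a change of -0.09 ± 0.11 (adjusted p 0.528), with 3 lines lower and clone 2 higher at 24 h. Tdg was higher at 24 h in all 4 lines, by 0.07 to 0.41, without a call (0.20 ± 0.14, adjusted p 0.325).

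In the same 24 h the formative or primed markers Fgf5, Otx2, Pou3f1, Lef1 and Sox3 rose and T fell, so that 6 of 6 were called. The pluripotency genes Nanog, Esrrb and Zfp42 fell. Of 11 fibroblast markers tested, 6 fell, and their summed level went from 871 to 270 CPM in F121 and from 929 to 234 CPM in V6.5, although the labels describe cells grown without feeders. In the clones the sums were 92.3 and 202 CPM at 0 h and 105 and 187 CPM at 24 h. Of the other lists, 2 of 4 primitive endoderm markers and 1 of 3 trophoblast markers were called lower and none higher. The median change was -0.87 for the primitive endoderm markers but 0.41 for the trophoblast markers. The part of these cells in the Tet2 and Tet3 changes was not tested.

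The clones labelled Dusp9+/- were set against F121 at each time, with the single F121 library at each time assumed to vary like the clones, so that SE and p rest on the spread between the clones (2 residual degrees of freedom) and not on repeated F121 cultures. At 0 h Tet2 was lower in both clones (7.79 and 7.71) than in F121 (8.89). The difference of -1.14 ± 0.09, a 2.20-fold lower level, was called (adjusted p 0.0135), where 8.91% of all genes were called (4.81% higher and 4.10% lower) and 1 of the 4 members. Tet1 was 10.44 and 10.03 in the clones and 10.73 in F121, a difference of -0.50 ± 0.18 that was not called (adjusted p 0.133). Against each clone alone it was -0.30 (clone 1) and -0.70 (clone 2), values between single libraries. Tet3 (0.36 ± 0.20, adjusted p 0.272) and Tdg (0.18 ± 0.24, adjusted p 0.637) were not called.

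At 24 h Tet2 was 7.11 and 7.13 in the clones and 7.45 in F121. The difference of -0.32 ± 0.09 was not called (adjusted p 0.111), and no other member was (1 of 4 had an unadjusted p under 0.05, and voom called 0), where 2.55% of all genes were called (1.57% higher and 0.984% lower). Over the 24 h Tet2 went down by 0.68 and 0.58 in the clones and by 1.45 in F121, a difference of 0.82 ± 0.13 that was not called (adjusted p 0.206). Of 14335 genes 0.00% were called in it by limma, 1766 had an unadjusted p under 0.05, and voom called 0. The fibroblast sum at 0 h was 871 CPM in F121 and 92.3 and 202 CPM in the clones, with 7 of 11 tested markers lower in the clones, led by Postn (-4.77) and Dcn (-3.72), and none at 0 reads. At 0 h 2 of 6 formative markers (median 1.22) and 1 of 3 trophoblast markers were also higher in the clones and 2 of 5 pluripotent markers lower, and at 24 h 3 of 3 trophoblast markers were higher. The part of those differences in the Tet2 result was not tested. V6.5 and F121 at 0 h had the highest fibroblast sums of the 8 withdrawal libraries and the highest Tet2 of all 24 libraries. Over all 24 libraries the highest fibroblast sum was 1557 CPM, in LV4 at P13, where Tet2 was 8.19.

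The iPSC lines at P7 were set against the CM ESC lines at P5, groups that differ in cell origin, strain, passage and experiment, which cannot be told apart. Tet2 was lower in the iPSC lines, with a range from 7.17 to 8.17 and a median of 7.41 over 6 lines, than in the CM lines, where it was 8.27, 8.31, 8.14 and 7.67. The groups overlapped through LV20, LV22 and CM7. The difference was -0.50 ± 0.14 (adjusted p 0.0123), where 38.9% of all genes were called (19.4% higher and 19.5% lower), and it was not called without CM3 (-0.38, adjusted p 0.0703). Fibroblast markers were lower in the iPSC lines too (10 of 12 tested), with sums of 288 to 419 CPM against 600 to 699 CPM and none at 0, as were 4 of 6 formative, 2 of 5 primitive endoderm and 2 of 5 pluripotent markers, and their part in the result was not tested. Tet1 (0.16 ± 0.09, adjusted p 0.167) and Tet3 (0.01 ± 0.14, adjusted p 0.956) were not called. Tet1 was called without LV21 (0.21, adjusted p 0.0341) or without CM3 (0.27, adjusted p 0.0159).

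Tdg needs its copies beside it, since the table also lists Tdg-ps on chromosome 15 (82516295 to 82519242) and Gm9855, named Tdg-ps2 by RefSeq, on chromosome 10 (42052558 to 42055453). How reads that fit more than 1 of them were counted is not given in the sources used here, so the level of each alone is uncertain. Tdg-ps had 0 to 9 reads in the 12 iPSC libraries and 0 in both V6.5 libraries. It had 82 to 117 reads in the CM lines and 41 to 65 in F121 and the clones. The split follows the labelled strain, since all libraries with more than 9 Tdg-ps reads are musculus by castaneus and all others Mus musculus.

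Tdg itself was 1.89 in F121 at 0 h and 2.00 at 24 h, and 1.99 to 2.23 in the clones, against 2.65 and 3.07 in V6.5. Gm9855 was 0.73 to 1.46 in the CM lines and 2.05 to 3.30 in all other libraries. F121 and V6.5 share the withdrawal experiment and differ in labelled strain and in sex chromosomes. CM and F121 share the labelled cross and differ in experiment, with Tdg at 2.96 to 3.35 in the CM lines. Reads were 36 bases in the withdrawal experiment and 36 or 51 in the others. The parts of strain, experiment and read length in these levels were not tested. Between iPSC and CM lines Tdg alone differed by -0.19 ± 0.18 (adjusted p 0.435), and the reads of all 3 loci summed by -0.57 ± 0.13 (adjusted p 0.00479). The copies moved in opposite directions there, Tdg-ps called lower (-5.04) and Gm9855 called higher (1.41) in the iPSC lines. The summed reads were also higher at 24 h without LIF (0.33 ± 0.11, adjusted p 0.0499). Summing the loci was chosen after their values were seen. Tdg alone was called in neither of these 2 comparisons, so the calls are for the sum of the loci and not for Tdg.

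**Figure D4:**
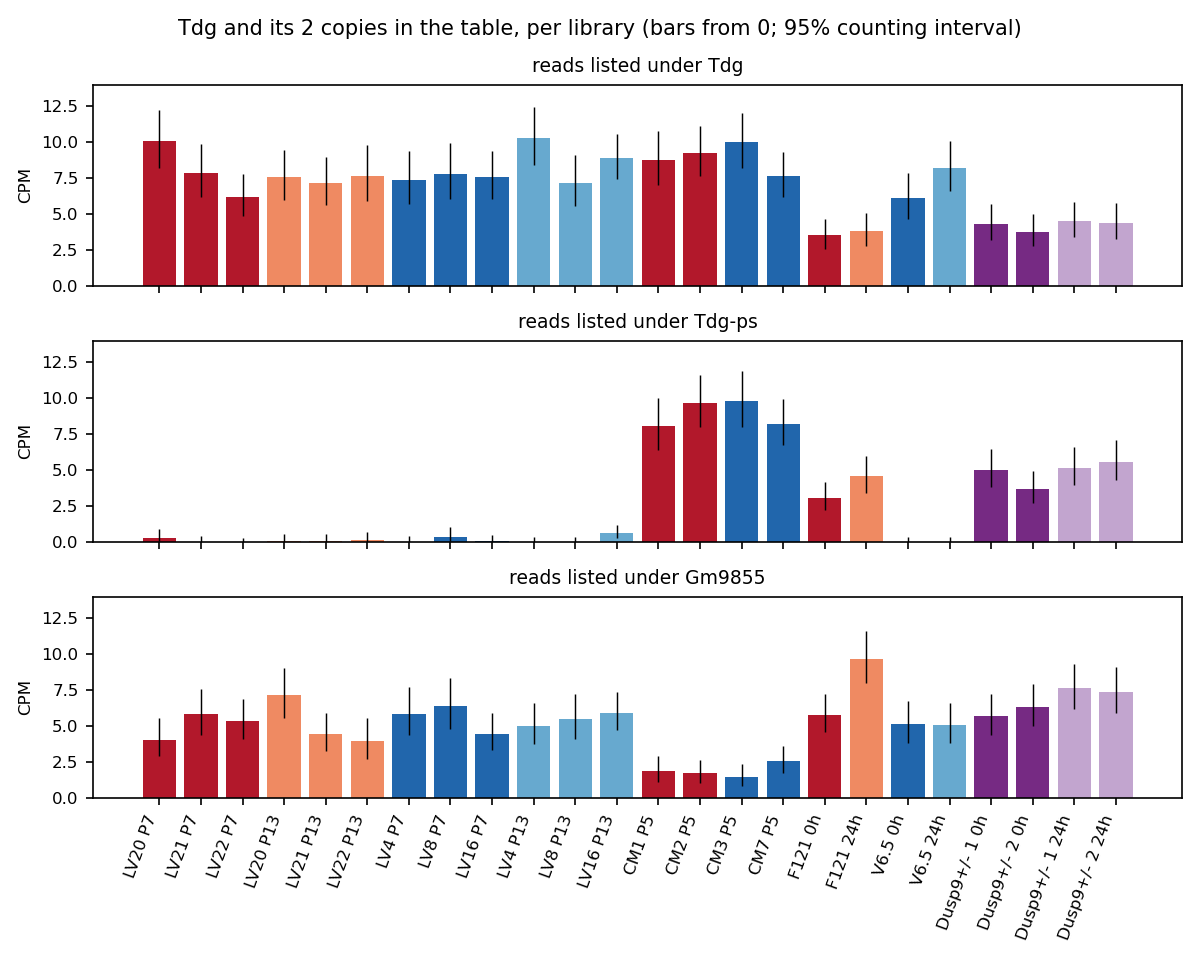
CPM of Tdg and of its copies Tdg-ps and Gm9855 in each of the 24 libraries, with bars from 0 and 95% Poisson intervals that cover counting error only. Colours mark the groups named under the bars (red or orange female or XX, blue XY, purple clones labelled Dusp9+/-). Tdg-ps has signal in the CM, F121 and clone libraries and almost none in the iPSC and V6.5 libraries.

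The other genes of the pathway were taken from 4 lists, of base excision repair (19 genes), TET partners and binding proteins (12), DNA methylation writers and their readers (9) and 2-oxoglutarate supply (14). With LIF removed, base excision repair had 4 of 19 genes higher and 0 lower, with a median change of -0.018 against 0.023 over all genes. Over all genes 16.8% were higher and 15.9% lower, so the share of repair genes higher was near the background. The higher ones were Fen1, the flap nuclease (0.52 ± 0.08), the ligase Lig3 (0.31 ± 0.06), the uracil glycosylase Ung (0.20 ± 0.06) and the endonuclease Apex1 (0.25 ± 0.08). Of the methylation writers 4 of 9 were higher and 0 lower (median 0.24), namely the de novo methyltransferases Dnmt3b (1.57 ± 0.12) and Dnmt3a (1.58 ± 0.30), their cofactor Dnmt3l (0.94 ± 0.12) and the remodeller Hells (0.62 ± 0.07). The other 5 writers were not called.

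Among TET partners 5 of 12 were higher and 2 lower at 24 h without LIF, with a median change of 0.22. Of all genes 16.8% were higher and 15.9% lower. Nanog, which binds Tet1 and Tet2 in mouse ESCs, fell by 1.64 on the log2 scale, Prdm14, which recruits TET activity, fell by 2.03, and Zfp281 (0.62 ± 0.06) and Lin28a (0.63 ± 0.10) rose. Of the 2-oxoglutarate genes 0 of 14 were higher and 3 lower (median -0.012), the isocitrate dehydrogenases Idh1 (-0.71 ± 0.09) and Idh2 (-0.58 ± 0.09) and the serine pathway enzyme Psat1 (-0.28 ± 0.06).

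From P7 to P13 in the female lines, where Tet3 fell, base excision repair had 2 of 19 genes higher (Apex1, 0.45 ± 0.11, and the scaffold Xrcc1, 0.30 ± 0.09) and 2 lower (the glycosylase Neil3, -1.09 ± 0.31, and Gadd45b, -0.89 ± 0.26). The list medians were 0.030 for base excision repair, 0.25 for writers, -0.0075 for partners and -0.053 for 2-oxoglutarate supply, and the median of all genes -0.00205. Of all genes tested in the female lines, 4.32% were higher and 4.68% lower. Of the writers 3 of 9 were higher (Trim28, Dnmt3l and Dnmt3a) and Uhrf2 was lower (-0.71 ± 0.12). Dnmt3l changed by 1.03 ± 0.22 and Dnmt3a by 0.83 ± 0.20. Of 11 tested TET partners Sall4, a zinc finger protein that binds 5-hydroxymethylcytosine, was higher (0.40 ± 0.10), and Nanog (-0.94 ± 0.23) and Ogt, the X-linked glycosyltransferase bound by TET proteins (-0.58 ± 0.14), were lower. No gene of the 2-oxoglutarate list was called by limma or voom (4 of 14 at an unadjusted p under 0.05). In the XY lines 3 of 53 tested genes of the 4 lists were higher and 3 lower, with a median of -0.083, where 7.23% of all genes were higher and 5.82% lower. Among them Apex1 (0.40 ± 0.11), Trim28 (0.44 ± 0.08), Gadd45b (-1.36 ± 0.26) and Uhrf2 (-0.44 ± 0.12) went the way they did in the female lines.

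Between wild-type XX and XY ESCs, where no TET gene was called, 6 of 53 list genes were higher and 3 lower in XX, with a median of 0.015, where 4.87% of all genes were higher and 2.32% lower. Nanog (1.00 ± 0.08), Prdm14 (1.34 ± 0.14) and the X-linked Ogt (0.68 ± 0.09) were higher, Dnmt3b (-1.19 ± 0.18) and Dnmt3a (-0.73 ± 0.13) were lower, and Idh2 (1.11 ± 0.10) and the X-linked Idh3g (0.81 ± 0.13) were higher. In female against XY iPSC lines at P7, 3 of 53 (median -0.038, with 3.05% of all genes higher and 1.72% lower) were higher (Prdm14, 1.24 ± 0.33, the imprint regulator Zfp57, 0.55 ± 0.12, and Idh3g, 0.62 ± 0.14) and 2 lower (Xrcc1, -0.34 ± 0.09, and Uhrf1, -0.30 ± 0.08). At P13 none of the 53 was called by limma or voom, and 0 had an unadjusted p under 0.05.

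In the clones labelled Dusp9+/- at 0 h, where Tet2 was lower, 3 of 54 list genes were higher than in F121 and 4 lower, where 4.81% of all genes were higher and 4.10% lower. Gadd45b (1.71 ± 0.24), Gadd45g (2.69 ± 0.54) and Dnmt3b (0.72 ± 0.09) were higher, and Nanog (-0.81 ± 0.12), Zfp281 (-0.48 ± 0.11), Trim28 (-0.64 ± 0.09) and Zfp57 (-0.48 ± 0.09) were lower. At 24 h Gadd45b alone of the 54 was called (2.26 ± 0.24), where 2.55% of all genes were called. Between iPSC lines at P7 and CM lines, where 38.9% of all genes were called, 9 of 53 were higher and 17 lower. These held 7 of 19 repair genes higher and 3 lower, led by Lig3 (0.70 ± 0.06) and Apex1 (-0.67 ± 0.08), and 6 of 9 writers lower with none higher, led by Uhrf1, which guides maintenance methylation (-0.75 ± 0.05). Of the partners 1 was higher and 5 lower, and of the 2-oxoglutarate genes 1 was higher (Ogdh, 0.64 ± 0.06) and 3 lower, among them Idh2 (-0.98 ± 0.16).

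Likeness of pattern was described over the 24 libraries, which come from 14 lines and share line, strain and experiment. Pearson's r of log2 CPM was 0.67 between Tet1 and Tet2, -0.55 between Tet1 and Tet3 and -0.60 between Tet2 and Tet3. Tdg had r of 0.04 with Tet1, 0.15 with Tet2 and -0.59 with Tet3. The genes most like Tet1 in level pattern were Ska3 (0.89), Lars (0.87) and Kdm4a (0.86), and those most like Tet2 were Nfib (0.87), Bicral (0.86) and Brca2 (0.85).

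Among the genes most like Tet3 were Plxna3, a plexin (0.90), and Pja1, a ubiquitin ligase (0.90), and both are X-linked whereas Tet3 is on chromosome 6. The likeness was present within the 12 iPSC libraries (0.88 and 0.92) and within the 12 ESC libraries (0.87 and 0.86). Both genes were picked by their r over these same 24 libraries, so high values within each set are partly built in. LV20 and LV22 at P7, with the highest X-linked output of the iPSC libraries, also had the highest Tet3 of them, at 5.37 and 5.75. LV22 at P13 departed from that, with X-linked output 0.32 below the autosomes, above the other P13 libraries, and Tet3 at 4.53. For Tdg the 3 most alike genes were Gm10499 (0.92), Rps2 (0.91) and Hmga1 (0.91), all on chromosome 17, with r of 0.95 to 0.97 within the ESC libraries and of -0.12 to 0.11 within the iPSC libraries.

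**Figure D5:**
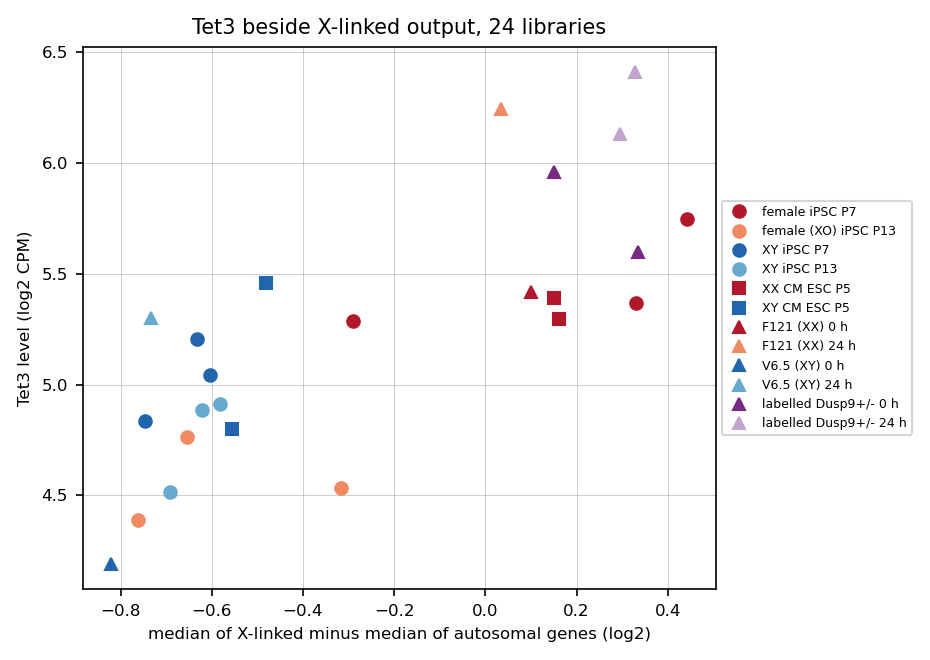
Tet3 (log2 CPM) against the median of 540 X-linked genes minus the median of 13161 autosomal genes (log2) in the 24 libraries, circles for iPSC lines, squares for CM lines and triangles for the withdrawal experiment. V6.5 at 0 h is lowest on both axes and the clones labelled Dusp9+/- at 24 h lie at the upper right. V6.5 and F121 at 24 h lie above their own 0 h points at similar X-linked output.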

How the data were processed

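Per the labels' protocols, RNA was extracted with TRIzol and made into stranded mRNA libraries, read from a single end. Per the submitters' processing notes, STAR 2.5.3a, featureCounts and edgeR were used with GRCm38 and mm10, and the counting settings are not given in the sources used here. The authors deposited log2 CPM, counts scaled to library size with an offset. On the linear scale 100% of values were a floor plus whole reads (tolerance 0.01 reads), which gave each library's read total and, with the deposited offset, a mean prior of 2 reads.

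Genes averaging at least 1 CPM across a fit entered the test by limma 3.58.1 (R 4.3.3, trended, 2-sided), adjusted by Benjamini-Hochberg over all genes tested, after a check on simulated data. The 12 iPSC libraries shared 1 fit. The ESC comparison had the experiment, and the LIF comparison the genotype, as covariate. The labels do not say that lines were independent cultures beyond their names, so p-values measure the spread between these libraries. Same-named libraries at 2 passages or times are labelled as the same cell line and so as paired. Their deviations correlated weakly in the iPSC lines (-0.04 to 0.11) and negatively in the clones (-0.36), whose pairing by number is uncertain. Members were taken by symbol, pathway genes from 4 lists, and similar genes as the 3 with the highest Pearson r, of which 1 is not reported here. The members and the lists were chosen with earlier results of these data known. Alternatives were the offset, the filter, voom on recovered reads, 2 other scalings, the cell line as a block, and leaving libraries out. Promoter sequences and positions are RefSeq's for GRCm38.p6. Levels were not compared between genes, since no exon lengths were used here. Intervals on reads cover counting error only.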

Additional observations from a re-analysis of the deposited data

How the results depend on the processing

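The 44 changes of single members were each refitted under the alternative settings, on largely the same libraries, so the refits are not independent. Of these refits 600 kept the direction and the side of the threshold, 7 gained and 8 lost a call, and 26 changed sign, none of them called either way. Both calls without LIF, Tet3 in female lines with passage and Tet2 in the clones labelled Dusp9+/- at 0 h held in every setting run (for the clones, with F121 a single library and, where a clone is left out, a spread taken from the other groups). Blocking by cell line changed no member's call (Tet3 in female lines, adjusted p 0.00671; Tet2 in XY lines, 0.0335; Tet2 and Tet3 without LIF, 0.00876 and 0.0192). Crossing the clones in the replicate block, chosen after seeing the data, gave 4493 genes and 2 members. No scaling moved the median of all genes by over 0.1.

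Genes called moved as follows. At P7 they were 440 without a filter, 428 with the spread of those groups alone and 1818, with 1 member, without the P7 library of LV21 and the P13 library of LV22. With passage they were 436 in female lines with the spread of those groups alone. In the passage interaction they were 364 without LV21 and LV22 and 11 with the replicate block. In wild-type ESCs they were 1690 in CM lines alone. For the clones they were 200 at 0 h without a filter, and at 24 h 178 with log2(CPM + 5), 0 without a filter (voom 16). Members called in XY lines with passage were 0 without a filter and 0 by voom.

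Leaving out 1 library gave 44 to 1727 genes and 0 to 1 members at P7, 174 to 2079 genes in female and 429 to 2198 in XY lines with passage (0 to 1 members in XY), and 0 to 145 in their interaction. It gave 208 to 1682 genes in wild-type ESCs, 3086 to 4158 without LIF, 1610 to 1953 genes and 1 to 2 members for the clones at 0 h, 1 to 104 at 24 h, 0 to 24 in their interaction, and 4054 to 6213 genes and 1 to 2 members for iPSC against CM lines.

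The changes of sign were small, and the range over libraries left out follows each. At P7 Tet1 was 0.052 without LV21, with or without LV22 (-0.10 to 0.052), and Tdg -0.11 without LV20 (-0.11 to 0.23). At P13 Tet1 was -0.049 without LV21 (-0.049 to 0.17). With passage Tdg was 0.094 in female lines without LV20 (-0.25 to 0.094). In the passage interaction Tet2 changed sign without LV22 at P7 (0.016) or LV8 at P13 (-0.40 to 0.10), and Tet1 without LV21 at P13 (-0.0061 to 0.21). In wild-type ESCs Tet1 was 0.040 and Tdg 0.046 in CM lines alone or without F121 or V6.5 (-0.33 to 0.040 and -0.41 to 0.046), Tdg 0.041 with its copies summed, and Tet2 negative without CM7 (-0.061 to 0.38). For the clones at 24 h Tet3 was -0.017 centred on autosomes and negative without clone 1 (-0.12 to 0.17), Tdg -0.057 with copies summed (0.19 to 0.24), and in the interaction negative without clone 2 at 0 h (-0.060 to 0.12). Between iPSC and CM lines Tet3 was -0.0059 with median-of-ratios scaling, -0.0052 centred on autosomes, and negative without LV22, LV4, CM2 or CM3 (-0.15 to 0.18). The cause was not tested. Depth limits Tdg most, with at most 126 reads per library.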
